A study of Amaranthus palmeri with 48 samples.

Results

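Atrazine lowered the RNA of 145 gene models in leaves of Palmer amaranth (Amaranthus palmeri). On the average of resistant and susceptible plants, these changed little after 2,4-D, chlorsulfuron or lactofen. They were chosen by measured values from the 26353 gene models of the count table. Counts were scaled to each library's total and are given as CPM, the usual unit for counts relative to sequencing depth, and a gene had to reach 1 CPM in all 18 untreated libraries with an untreated mean under 1000 CPM, which left 14303 genes, here called the expressed genes. The herbicide difference of a gene is the mean log2(CPM + 1) of treated plants minus that of untreated plants of the same batch and line, averaged over the lines. The rule asked for a difference of -0.8 or lower after atrazine and between -0.5 and 0.5 after each of 2,4-D, chlorsulfuron and lactofen, and it would have kept at most 200 genes, a limit that was not reached. The size of the atrazine difference and the small differences after those 3 herbicides were therefore set by the choice, and they are described here without support from a test.

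Plants labelled as resistant or susceptible in phenotype, here called lines, were grown, per the labels, from seed in a growth chamber and sprayed at 10 to 12 cm height. Leaves were taken 6 h after treatment, and stranded polyA libraries were sequenced. Line, treatment and batch formed 16 groups of 3 libraries, 48 libraries in all. Batch 1 held untreated, 2,4-D and mesotrione plants, batch 2 held untreated, atrazine and chlorsulfuron plants, and batch 3 held untreated and lactofen plants, each in both lines. The series asks how metabolic resistance to several herbicides shows in the transcriptome. Each herbicide was thus present in a single batch, and atrazine and chlorsulfuron were compared with the same untreated plants, as were 2,4-D and mesotrione. Herbicide doses, the origin of the lines and whether a numbered plant was sampled more than once are not given in the labels.

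Atrazine binds the plastoquinone site of photosystem II and stops electron flow from water, so that lit leaves lose photosynthetic reducing power and form reactive oxygen species. Mesotrione blocks an enzyme on the way to plastoquinone, the mobile electron carrier that photosystem II reduces, and to tocopherols. The other herbicides act elsewhere: 2,4-D mimics auxin, chlorsulfuron blocks the first shared step of branched-chain amino acid synthesis, and lactofen blocks a late step of tetrapyrrole synthesis, so that a light-activated porphyrin builds up. The identifiers in the files used here carry no gene names and no annotation was used, so the genes are given by identifier, with no role, and lists of pathway genes could not be applied. For the same reason the leaf label was not checked against marker genes. The chromosome is read from the identifier.

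Library totals ran from 16583010 to 72979429 counts in batch 1, from 44999718 to 62829178 in batch 2 and from 41828563 to 59908233 in batch 3. Some libraries stood apart before any comparison. In 29 genes that were on in some batch 1 plants and off in others, every batch 2 library matched the batch 1 plant of its own number and line at 93.1% to 100% of genes, except the 3 susceptible libraries numbered 7 (untreated, atrazine and chlorsulfuron). Those matched susceptible plant 6 at 96.6% to 100% and plant 7 at 55.2% to 58.6%. Susceptible numbers 6 and 7 of batch 2 may therefore be the same plant, which the labels do not settle. Each of those groups may then hold fewer than 3 separate plants. In batch 3, the resistant untreated library numbered 8 had the lowest scaling factor of the TMM method, 0.643, and the lowest mean level of expressed genes. Several counts of calls that rest on these libraries are given with and without them, and the others with all libraries only.

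Before treatment the 145 genes were of ordinary abundance. Their untreated mean levels ran from 2.27 to 447 CPM with a median of 23.4 CPM, against a median of 25.8 CPM for the expressed genes. The quartiles were 10.7 and 52.7 CPM, 17 genes were at 100 CPM or more and 34 were under 10 CPM. The spread between libraries of a group, as the median SD of log2(CPM + 1), was 0.307 for the 145 genes and 0.287 for the expressed genes. Together the genes took 0.564% to 0.738% of the counts of an untreated library of batch 2 and 0.283% to 0.399% of an atrazine library.

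The genes that passed were a small part of what atrazine lowered. In all, 2771 expressed genes had an atrazine difference of -0.8 or lower. Of these, 1676 stayed within 0.5 after 2,4-D, 840 after chlorsulfuron and 420 after lactofen, and 145 after all 3. Lactofen took out most candidates: 2207 of the 2771 had a lactofen difference of -0.5 or lower and 144 had one of 0.5 or higher. The 2626 genes that failed had a median atrazine difference of -1.30, against -0.997 for the 145 genes, and their medians were -1.69 after lactofen, -0.86 after chlorsulfuron and -0.36 after 2,4-D. The last genes inside the atrazine limit stood at -0.8003 and -0.8011 and the first outside at -0.795 and -0.794. For lactofen the nearest values inside were -0.497 and -0.496 and the nearest outside were -0.502 and -0.505.

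The mean level of the 145 genes was low in the 6 atrazine libraries, between 3.56 and 3.89 on the log2(CPM + 1) scale. Of the other libraries, the resistant untreated library numbered 8 of batch 3 also lay in that range, at 3.88. It was 3.87, 3.57 and 3.62 in atrazine-treated resistant plants 5, 7 and 8, against 4.75, 4.48 and 4.92 in the untreated plants of those numbers. In susceptible plants 5, 6 and 7 it was 3.89, 3.58 and 3.56 after atrazine, against 4.86, 4.88 and 4.75 in the untreated ones. The groups did not overlap in either line, and within each line plant 5 kept the highest level after atrazine. The mean level of all expressed genes was 4.68 to 4.79 in the atrazine libraries and 4.77 to 4.90 in the untreated libraries of that batch.

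**Figure D1:**
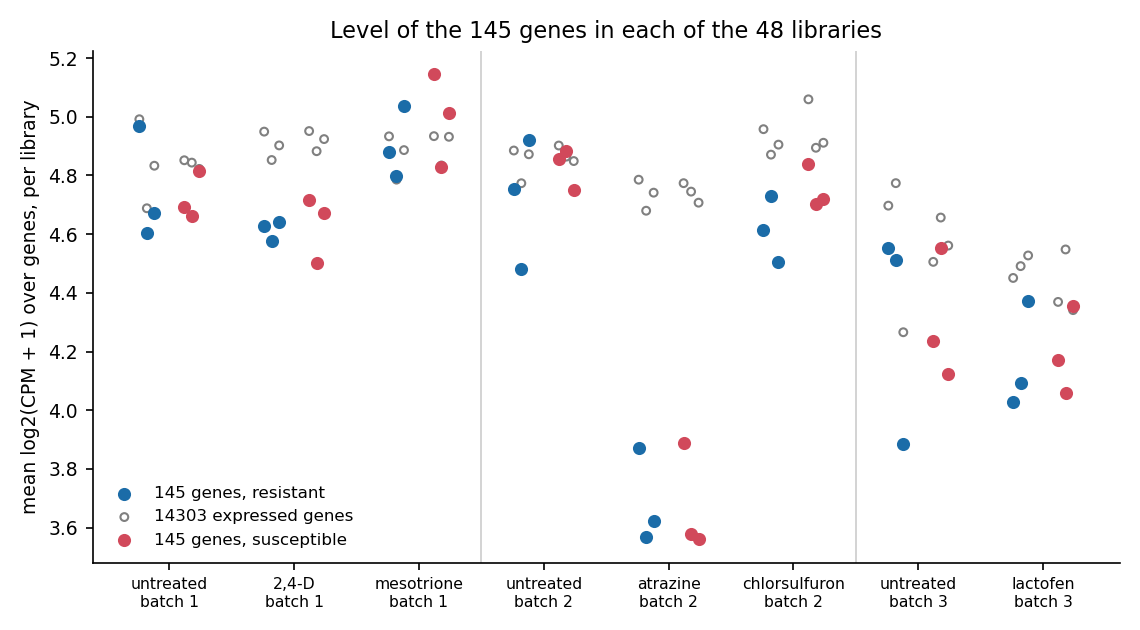
Mean log2(CPM + 1) over the 145 genes (filled points, blue for resistant and red for susceptible) and over the 14303 expressed genes (open points) in each of the 48 libraries, by treatment and batch, with grey lines between batches. The 6 atrazine libraries lie between 3.56 and 3.89, and batch 3 is lower as a whole, for the 145 genes and for the expressed genes.

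In bulk leaf RNA, a smaller number of cells that use a gene cannot be told apart from less of its RNA in each cell. For the individual genes, the atrazine difference ran from -3.09 to -0.80. It was -1 or lower in 71 genes, -1.5 or lower in 11 and -2 or lower in 3. The median was -0.98 in resistant and -1.10 in susceptible plants. The limit of -0.8 was met in both lines by 99 genes, in resistant plants alone by 14 and in susceptible plants alone by 32, since the rule averaged the lines. A total of 141 genes were lower in all 6 comparisons of a treated plant with the untreated plant of the same number. Susceptible numbers 6 and 7 may be the same plant, so these need not be 6 separate plants. The share of the expressed genes that were lower in all 6 was not computed. The rule used the same libraries, so nothing is read from the count of 141. The median change of each atrazine library was also taken from the mean of its line's 3 untreated libraries of batch 2, without pairing by number. It was -0.78 and -0.86 for resistant and susceptible plant 5, and between -1.02 and -1.24 for the other 4. Mean levels by plant number are those given above.

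The 3 atrazine libraries all lay below the 3 untreated libraries for 133 genes in resistant plants, where 30% of expressed genes did so, and for 140 genes in susceptible plants, where 32.7% did. This held in both lines for 128 genes, against 24% of expressed genes. In the quasi-likelihood test of edgeR over 20645 genes, with Benjamini-Hochberg adjustment and a threshold of 0.05, 116 of the 145 were called lower in resistant plants (15.4% of all genes tested were) and 123 in susceptible plants (also 15.4%). All 145 had passed the filter on low counts. Nothing is read from these counts, as the rule used the same contrast. A call was reached in both lines by 103 genes (11.8% of all genes tested), in resistant plants alone by 13, in susceptible plants alone by 20 and in neither by 9. Those 9 had a median untreated level of 9.11 CPM and a median SE of the log2 change of 0.528 in resistant plants, against 0.294 for the 145. Without the 3 susceptible libraries numbered 7, 94 genes were called lower in susceptible plants. Over all genes tested, calls in either direction in that line were then 5481, against 7419 with all libraries.

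**Figure D2:**
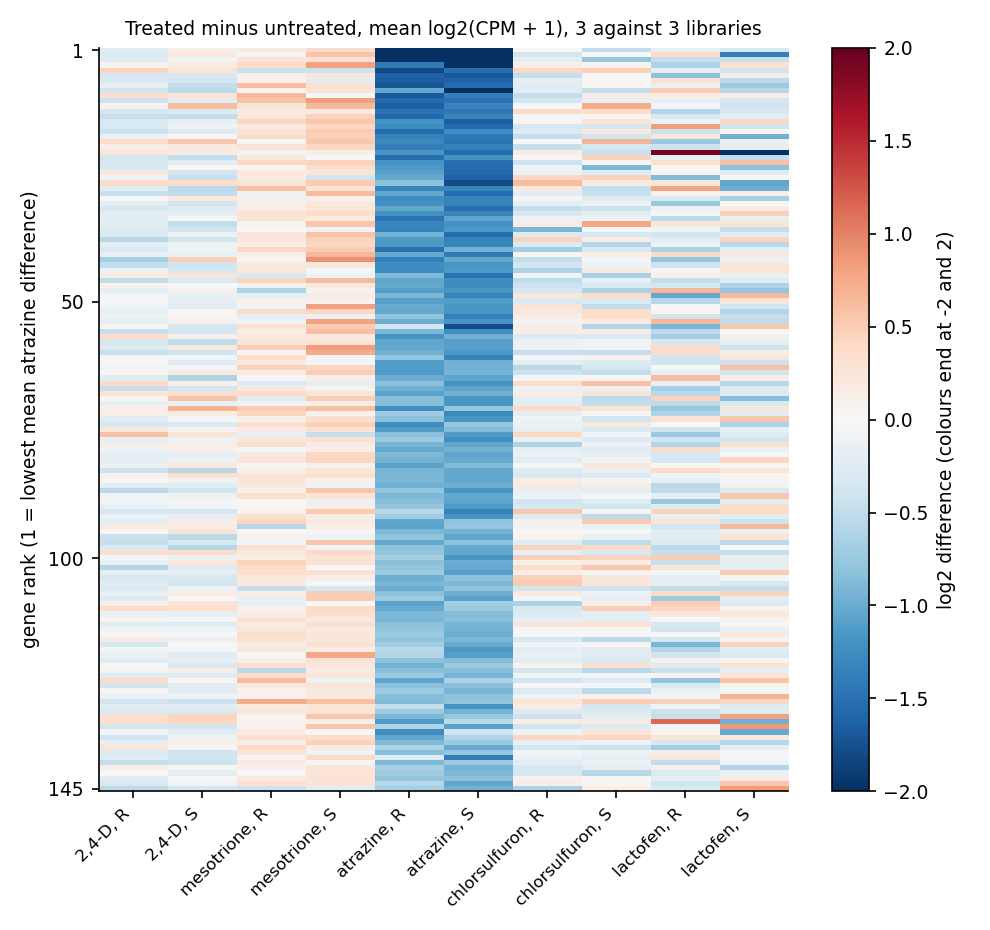
Treated minus untreated difference in mean log2(CPM + 1), 3 libraries against 3, for each of the 145 genes (rows, ranked by the mean atrazine difference) after each herbicide in resistant (R) and susceptible (S) plants. The atrazine columns are blue throughout, the 2,4-D and chlorsulfuron columns are pale, mesotrione is mostly pale red and the lactofen columns hold the strongest colours outside atrazine.

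The gene with the lowest atrazine difference was AmaPaChr15Ag235860-mRNA-1, on chromosome 15. It stood at 17.8, 14.3 and 12.3 CPM in atrazine-treated resistant plants 5, 7 and 8, against 131, 124 and 104 CPM in the untreated ones. In susceptible plants 5, 6 and 7 it stood at 15.9, 14.2 and 11.5 CPM after atrazine, against 132, 148 and 132 CPM untreated. All atrazine libraries were far below every other library of the series, whose lowest value was 62.0 CPM in a lactofen-treated susceptible plant. Its fitted log2 change was -2.96 ± 0.27 (SE) in resistant and -3.20 ± 0.27 in susceptible plants, with edgeR adjusted p-values of 1.2e-09 and 9.1e-11. The rule chose and ranked genes by this contrast, so these p-values only describe the choice.

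Next in rank was AmaPaChr06Ag113210-mRNA-1, on chromosome 6. After atrazine it read 4.75, 4.67 and 5.11 CPM in resistant plants, against 27.7, 19.4 and 37.1 CPM untreated. In susceptible plants it read 7.61, 8.68 and 6.81 CPM, against 30.1, 41.5 and 35.0 CPM untreated. Neither line's groups overlapped in batch 2. Batch 3 differed for this gene: 2 of the 3 lactofen-treated susceptible plants, at 4.44 and 4.73 CPM, were as low as the atrazine-treated plants, while the untreated ones spread from 8.71 to 43.9 CPM. Its log2 change after atrazine was -2.46 ± 0.43 (SE) in resistant and -2.09 ± 0.42 in susceptible plants, with edgeR adjusted p-values of 4.6e-05 and 0.00019. Here too the gene was chosen by this contrast, and nothing is read from the p-values.

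**Figure D3:**
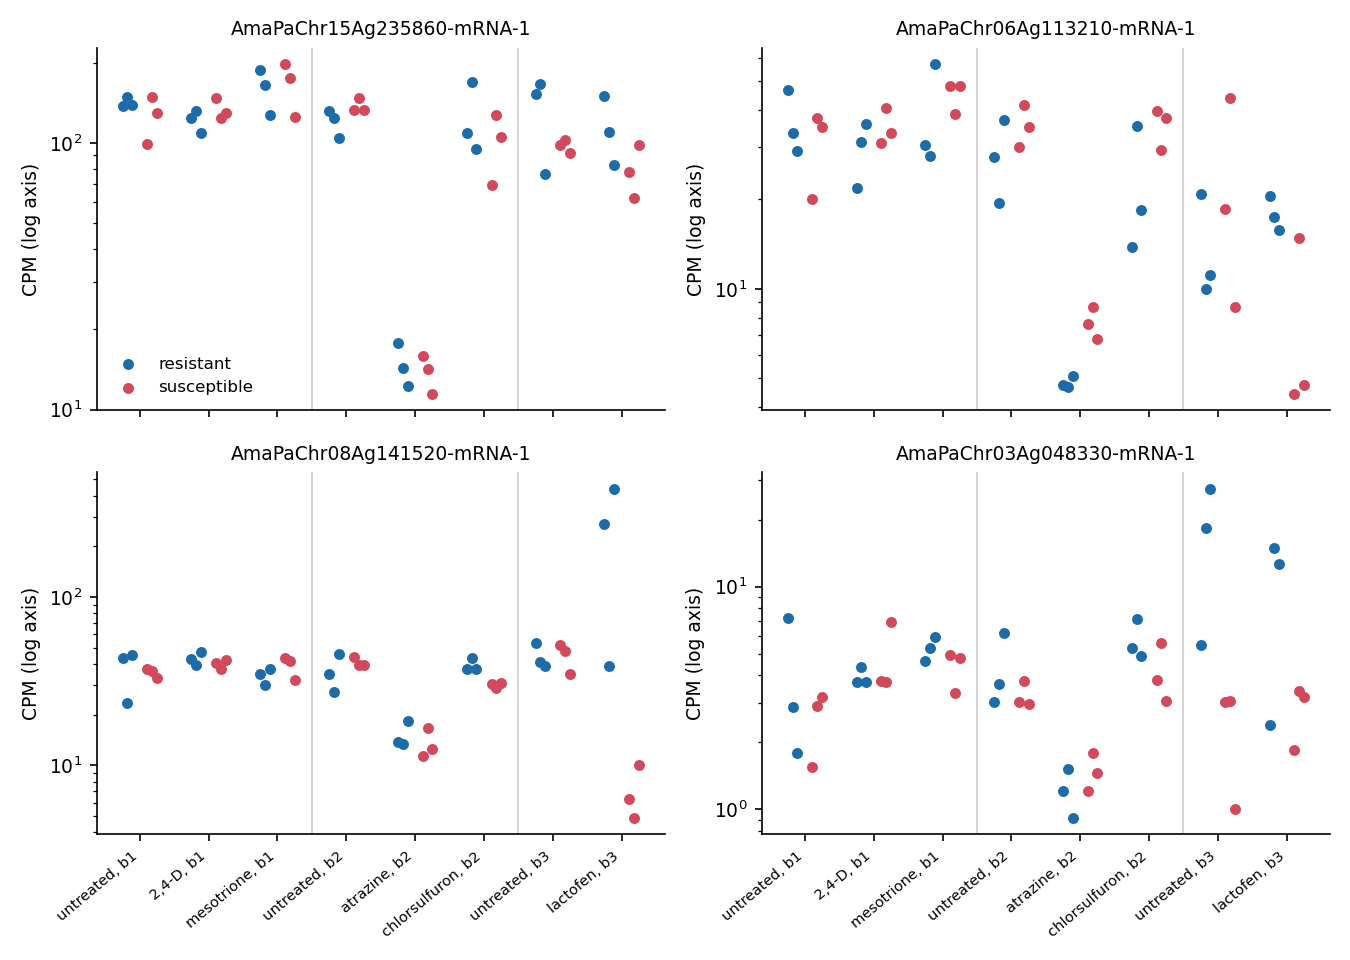
CPM on a log axis in each library for the 2 genes with the lowest atrazine difference (top) and for the genes with the largest called differences between the lines in the lactofen response (bottom left) and in untreated plants (bottom right); b1 to b3 are the batches, blue is resistant and red susceptible. AmaPaChr15Ag235860-mRNA-1 is at 11.5 to 17.8 CPM after atrazine and at 62.0 CPM or more elsewhere.

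Whether the lines responded differently to atrazine was not part of the rule and could be tested. The median difference between lines, resistant minus susceptible, was 0.05 on the log2 scale, with a range from -1.23 to 1.65 and quartiles of -0.21 and 0.31. The interaction term of edgeR called 0 of the 145 genes, 4 had an unadjusted p under 0.05 and DESeq2 called 0. Over all 20645 genes tested, 0.00969% were called. The median SE of a difference was 0.41, and a call takes a difference of several SE. Differences as far from 0 as -1.23 and 1.65 were not called, so sizeable differences between the lines could be missed.

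**Figure D4:**
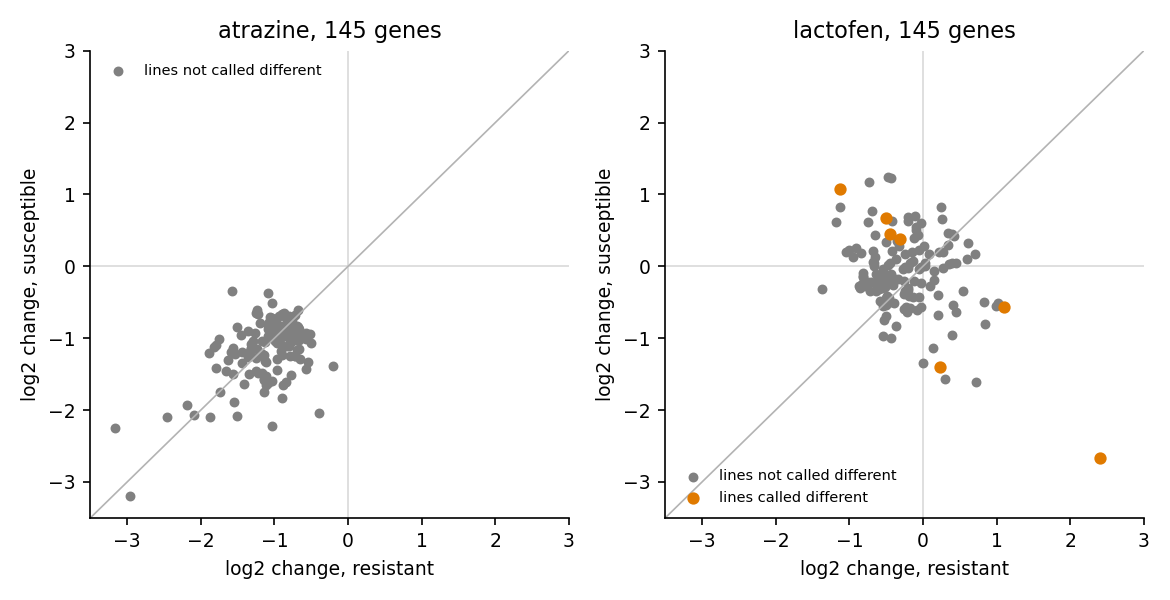
Fitted log2 change in resistant (x axis) and susceptible plants (y axis) for the 145 genes after atrazine (left) and lactofen (right), with the line of equal change; orange points are genes whose line difference was called at an edgeR adjusted p under 0.05. No gene is called for atrazine and 7 are called for lactofen, where points fill all 4 quadrants.

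Mesotrione was the herbicide the rule left out. After mesotrione, the 145 genes were shifted upwards as a group, although no single gene was called. The untreated libraries of this comparison were nevertheless used by the rule, for the limits on untreated levels and as the reference of another herbicide. The shift is therefore not independent of the choice, and the part of the shared reference in it was not tested. The median difference was 0.24 on the log2(CPM + 1) scale, against 0.05 for the expressed genes, and 128 of 145 genes were above 0, against 59.2% of expressed genes. In resistant plants 120 and in susceptible plants 124 genes were above 0, and 106 were above 0 in both lines, a state found in 39.9% of expressed genes. The other 2626 genes lowered by atrazine had a median of 0.16, with 75.4% above 0.

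By library, the median change after mesotrione was taken from the mean of the line's 3 untreated libraries of batch 1. It was 0.13, 0.08 and 0.34 in resistant plants 5, 7 and 8, and 0.38, 0.14 and 0.25 in susceptible plants 5, 6 and 7. It was above 0 in all 6 libraries, which share a single reference per line, and above the median of the expressed genes, between -0.04 and 0.10. Against the untreated library of the same number, the mean level fell in resistant plant 5, from 4.97 to 4.88, and rose in each of the others. The mean level of the 145 genes was 4.90 ± 0.12 (SD, n = 3) in mesotrione-treated and 4.75 ± 0.19 in untreated resistant plants, where the libraries overlapped, and 5.00 ± 0.16 against 4.72 ± 0.08 in susceptible plants, where they did not. Mesotrione libraries of batch 1 were shallower, at 16583010 to 30046691 counts, than most others, and the part of depth in this shift was not tested. With TMM scaling the shift was 0.18, against -0.01 for the expressed genes.

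In the edgeR test, 0 of the 145 genes were called after mesotrione in resistant plants (0.203% of all genes tested were) and 0 in susceptible plants (0%). At an unadjusted p under 0.05 there were 7 and 9 genes, and DESeq2 also called 0 in each line. The median fitted change was 0.15 and 0.19, against -0.02 over all genes tested in each line. The interaction of line and mesotrione called 0 genes with edgeR (0.126% of all) and 0 with DESeq2, with 2 at an unadjusted p under 0.05. The gene most lowered by atrazine, AmaPaChr15Ag235860-mRNA-1, read 187, 164 and 127 CPM in mesotrione-treated resistant plants, against 137, 148 and 138 CPM untreated. In susceptible plants it read 197, 175 and 125 CPM, against 99.3, 148 and 129 CPM, so that its groups overlapped in both lines.

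**Figure D5:**
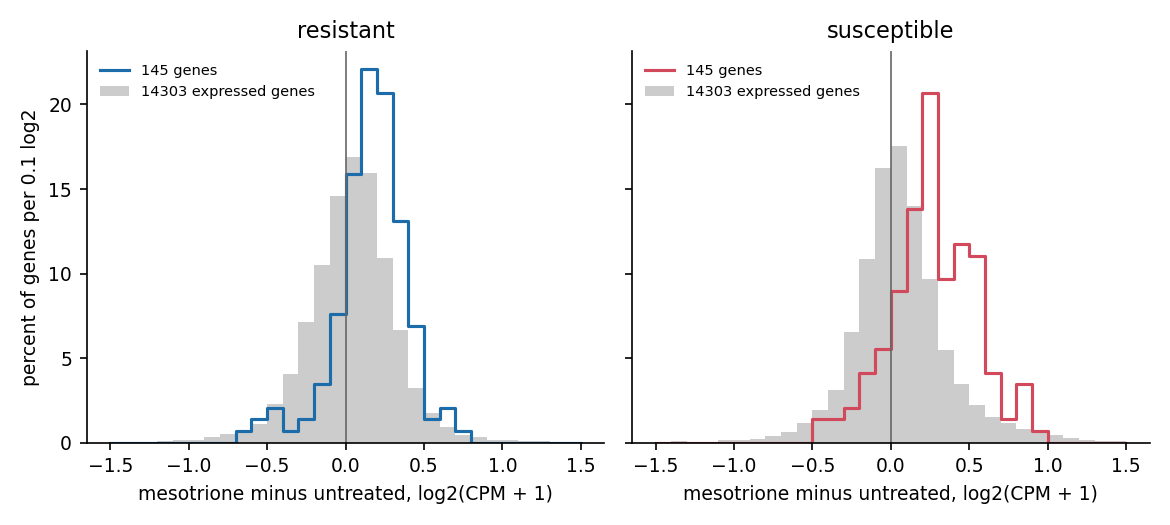
Share of genes (percent) by their mesotrione minus untreated difference in log2(CPM + 1), in steps of 0.1, for the 145 genes (coloured outline) and the 14303 expressed genes (grey bars), in resistant and susceptible plants. The outline is moved to the right of the grey bars in both lines, with 120 and 124 of the 145 genes above 0.

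After 2,4-D, which shared its untreated plants with mesotrione, the median difference was -0.14, against 0.06 for the expressed genes. Of the 145 genes 106 were below 0, against 43.8% of expressed genes. The rule held each gene within 0.5 of 0 on the average of the lines, and 18 genes reached 0.5 in some line. No gene was called by edgeR in resistant plants (3.14% of all genes tested were) or in susceptible plants (5.27%), with 11 and 15 at an unadjusted p under 0.05. DESeq2 gave 2 genes in the resistant and 1 in the susceptible line, all lower. The interaction called 0 with either tool (0% of all genes with edgeR), and 1 gene had an unadjusted p under 0.05.

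After chlorsulfuron, which shared its untreated plants with atrazine, the median difference was also -0.14, against 0.14 for the expressed genes. Of the 145 genes 95 were below 0, against 42.3% of expressed genes, and 30 reached 0.5 in some line. The rule used this contrast, so these values describe the choice. The edgeR test called 6 genes lower in resistant plants (11.8% of all genes were) and 11 lower in susceptible plants (15%), 15 genes in all (37.7% of all genes were called in some line) with 2 in both lines (22%). None was called higher. Scaled by library totals, as in the rule, edgeR called 0 genes in the resistant line, and 2 lower genes and 1 higher gene in the susceptible line. The calls of the 4 genes named here were lost under that scaling, with edgeR adjusted p-values from 0.059 to 0.084. Without the 3 susceptible libraries numbered 7 of batch 2, 3 genes were called lower in susceptible plants, and neither of the genes named for that line was among them. Over all genes tested, calls in either direction in that line were then 3492, against 6835 with all libraries. Without both resistant libraries numbered 8 of batch 3, which enter through the shared estimate of the spread and the scaling, 12 and 17 genes were called lower in the 2 lines, and DESeq2 on all libraries called 13 and 12. The lowest called changes in resistant plants were -1.04 ± 0.38 (SE) for AmaPaChr15Ag232340-mRNA-1 and -0.73 ± 0.26 for AmaPaChr13Ag206660-mRNA-1. The first read 42.6, 26.0 and 23.5 CPM in chlorsulfuron-treated resistant plants 5, 7 and 8, against 63.5, 35.4 and 82.6 CPM untreated, so the groups overlapped. In susceptible plants the lowest were -0.72 ± 0.23 for AmaPaChr10Ag169100-mRNA-1 and -0.68 ± 0.22 for AmaPaChr10Ag173530-mRNA-1. AmaPaChr10Ag169100-mRNA-1 read 6.76, 7.30 and 6.17 CPM in treated susceptible plants 5, 6 and 7, against 9.94, 10.0 and 10.5 CPM untreated, with no overlap. The interaction called 0 genes with edgeR (0% of all) and 0 with DESeq2, and 0 had an unadjusted p under 0.05.

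Atrazine and chlorsulfuron plants of batch 2 could also be compared with each other, without untreated plants. Atrazine plants were called lower for 82 genes in the resistant line (12.4% of all genes tested) and for 87 in the susceptible line (11.8%), and higher for none. The median difference was -0.79 and -0.86. Without the 3 susceptible libraries numbered 7, 42 genes were called lower in the susceptible line. Over all genes tested, calls in either direction were then 2215, against 5197 with all libraries. The rule used both herbicides, so the counts of the 145 genes too describe the choice. AmaPaChr15Ag235860-mRNA-1 had the lowest value in the resistant line, -2.94 ± 0.27 (SE), and AmaPaChr05Ag093000-mRNA-1, on chromosome 5, in the susceptible line, -3.10 ± 0.66. The latter gene read 0.555, 0.896 and 0.669 CPM after atrazine in susceptible plants and 2.98, 5.81 and 12.5 CPM after chlorsulfuron.

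Lactofen left the 145 genes near 0 only on average. The rule was applied to the mean of the lines, and 69 genes reached 0.5 in some line. In the edgeR test, the resistant line had 31 genes called lower and 3 called higher (27.6% and 26.1% of all genes were), and the susceptible line had 14 called lower and 12 called higher (29.3% and 30.4%). In all, 52 genes were called in some line (67.9% of all genes tested were), 4 were called lower in both (23.1%) and 4 were called in opposite directions (0.228%). Without both resistant libraries numbered 8 of batch 3, the resistant line had 37 lower and 2 higher genes and the susceptible line 17 and 12. In batch 3 alone, each line had 5 lower genes and 1 higher gene. With single libraries of batch 3 left out, the resistant line had 19 to 36 lower genes and 1 to 6 higher ones. It had 20 without lactofen-treated resistant plant 1 and 19 without plant 4. The susceptible line had 4 to 17 lower genes and 6 to 21 higher ones. The lower count was 4 without untreated susceptible plant 5, and the higher count was 21 without lactofen-treated plant 5, 6 without lactofen-treated plant 3 or 7 and 7 without untreated plant 7. After lactofen, chlorsulfuron or 2,4-D, 58 of the 145 genes were called in at least 1 line (74.3% of all genes tested were). The rule used these contrasts, so nothing is read from these counts.

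The difference between the lines after lactofen was called for 7 genes (2.26% of all genes tested were), 3 with a higher and 4 with a lower change in resistant plants, and 35 had an unadjusted p under 0.05. The rule kept the lines' average near 0, so a gene with a large change could pass only if its lines moved apart. The count depended on the libraries: it was 11 without both resistant libraries numbered 8 of batch 3, and it ran from 1 to 30 when single libraries of batch 3 were left out. It was 1 without lactofen-treated resistant plant 1, and 2 without lactofen-treated susceptible plant 3 or 7. It was 3 without lactofen-treated resistant plant 4 or untreated resistant plant 4, and 4 without untreated resistant plant 8 or untreated susceptible plant 3 or 5. It was 14 without lactofen-treated resistant plant 8 and 30 without lactofen-treated susceptible plant 5.

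The largest of these differences was in AmaPaChr08Ag141520-mRNA-1, on chromosome 8. In resistant plants 1, 4 and 8 it read 270, 38.9 and 440 CPM after lactofen, against 53.2, 41.0 and 38.8 CPM untreated. In susceptible plants 3, 5 and 7 it read 6.30, 4.87 and 10.1 CPM after lactofen, against 52.1, 47.6 and 35.0 CPM untreated. The susceptible groups were far apart, whereas 1 of the 3 lactofen-treated resistant plants, number 4, stayed within the untreated range. Its log2 change was 2.40 ± 0.39 (SE) in resistant and -2.67 ± 0.40 in susceptible plants, and the difference of 5.07 ± 0.56 had an edgeR adjusted p of 7.8e-07.

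Leaving out single libraries of batch 3 kept that difference between 4.45 and 5.58, and it was called each time. In batch 3 alone it was 5.09 with an edgeR adjusted p of 0.19. Outside lactofen and atrazine the gene was steady: it read 23.5 to 47.0 CPM in the libraries of batch 1 and 27.3 to 45.6 CPM in the untreated and chlorsulfuron libraries of batch 2. After atrazine it read 13.8, 13.4 and 18.4 CPM in resistant plants and 11.3, 16.7 and 12.5 CPM in susceptible plants, below every untreated library.

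A lower change in resistant plants was called for AmaPaChr01Ag017080-mRNA-1, on chromosome 1. It read 28.0, 34.0 and 84.6 CPM in lactofen-treated resistant plants 1, 4 and 8, against 98.8, 56.5 and 125 CPM untreated. In susceptible plants 3, 5 and 7 it read 227, 33.0 and 197 CPM, against 80.04, 82.4 and 58.3 CPM untreated. Groups overlapped in both lines, and susceptible plant 5 went the other way from plants 3 and 7. The difference between lines was -2.21 ± 0.60 (SE) with an edgeR adjusted p of 0.042, and the call was lost in 13 of 21 alternatives.

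AmaPaChr16Ag245900-mRNA-1, on chromosome 16, had a higher change in resistant plants, by 1.67 ± 0.45 (SE). It read 9.24, 6.07 and 3.22 CPM in lactofen-treated resistant plants, against 2.46, 3.98 and 2.08 CPM untreated, and 2.36, 2.84 and 2.11 CPM in susceptible plants, against 2.67, 5.44 and 2.84 CPM. Each resistant plant was higher than the untreated one of its number, and the groups overlapped in both lines. AmaPaChr02Ag038130-mRNA-1, on chromosome 2, had a lower change in resistant plants, by -1.17 ± 0.33. It read 14.0, 10.3 and 17.7 CPM in them after lactofen, against 23.0, 26.9 and 9.83 CPM untreated, and 37.2, 15.8 and 32.6 CPM in susceptible plants, against 14.6, 24.1 and 16.2 CPM. These groups overlapped too. The edgeR adjusted p-values were 0.043 and 0.048, and the calls were lost in 13 and 15 of 21 alternatives.

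Among the other genes called after lactofen, the lowest values in resistant plants were -1.36 ± 0.50 (SE) for AmaPaChr10Ag175120-mRNA-1 and -1.18 ± 0.42 for AmaPaChr08Ag140420-mRNA-1. The first call was lost in 4 alternatives and held in 11, and the second was lost in 2 and held in 13. In susceptible plants AmaPaChr04Ag066120-mRNA-1 had a log2 change of -1.61, which was -0.39 with an edgeR adjusted p of 0.53 without untreated plant 5. AmaPaChr06Ag112270-mRNA-1 rose there by 1.24, which was 0.76 with an edgeR adjusted p of 0.12 without lactofen-treated plant 3. AmaPaChr08Ag140420-mRNA-1 read 1.69, 2.34 and 3.79 CPM in lactofen-treated resistant plants, below the 5.86, 7.09 and 4.17 CPM of untreated ones. AmaPaChr06Ag112270-mRNA-1 read 5.60, 3.17 and 2.45 CPM in lactofen-treated susceptible plants, above the 2.11, 1.59 and 1.08 CPM of untreated ones. These 2 pairs of groups did not overlap, whereas those of AmaPaChr04Ag066120-mRNA-1 did, at 3.21, 2.94 and 3.27 CPM against 5.26, 21.8 and 2.81 CPM.

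In untreated plants of the 2 lines, few of these genes were called different. Over the mean of the 3 batches the median difference, resistant minus susceptible, was -0.0049 on the log2 scale. The edgeR test called 3 genes, all higher in resistant plants (3.05% of all genes tested were called, in either direction), and 11 had an unadjusted p under 0.05. The test treats the libraries of the batches as independent, although those of batches 1 and 2 matched by plant number in the on-and-off genes, so its p-values are too small where plants recur. A fit of this contrast with the plant as a block was not run. Within batches it called 0 genes in batch 1 (0.0291% of all), 0 in batch 2 (0.111%) and 1 in batch 3 (0.165%), while 2, 3 and 10 passed an unadjusted p of 0.05. By DESeq2 the counts were 0, 0 and 3.

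The gene called in batch 3 was AmaPaChr03Ag048330-mRNA-1, on chromosome 3. It read 5.49, 18.3 and 27.6 CPM in untreated resistant plants of batch 3 and 3.02, 3.08 and 1.01 CPM in susceptible ones, a difference of 3.01 ± 0.57 (SE) with an edgeR adjusted p of 0.012. In batch 1 it read 7.21, 2.88 and 1.79 CPM against 1.55, 2.91 and 3.21 CPM, and in batch 2 it read 3.05, 3.65 and 6.22 CPM against 3.03, 3.76 and 2.98 CPM. The lines overlapped in batches 1 and 2 and were apart in batch 3, and the pooled difference was 1.35 ± 0.31. The batch 3 call was lost without both resistant libraries numbered 8 of that batch, and 1 other gene was then called, lower in resistant plants. The pooled call held in the 25 alternatives run, none of which blocked by plant.

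AmaPaChr05Ag093000-mRNA-1 was also higher in untreated resistant plants, by 1.31 ± 0.36 (SE) with an edgeR adjusted p of 0.034. It read 25.2, 12.1 and 13.6 CPM in batch 1 and 13.8, 7.63 and 17.7 CPM in batch 2 in resistant plants, against 2.71, 3.26 and 7.38 CPM and 2.75, 3.68 and 3.43 CPM in susceptible plants. In those batches the lines did not overlap. In batch 3 they did, at 8.21, 1.79 and 2.08 CPM against 5.56, 3.99 and 1.77 CPM. The pooled call was lost in 12 of 25 alternatives, among them the fit without the 3 susceptible libraries numbered 7.

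The untreated plants of the batches were also compared, as a description. The rule used the untreated libraries of batch 2 as the atrazine reference, so genes high in them could enter more easily. The counts below are therefore not independent of the choice. Between batches 2 and 1, edgeR called 0 of the 145 genes in resistant plants (0.45% of all genes tested were called) and 0 in susceptible plants (0.373%), with 6 and 9 at an unadjusted p under 0.05. Between batches 2 and 3, it called 19 higher and 8 lower in resistant plants (13.5% of all, in either direction), and 12 higher and 2 lower in susceptible plants (10.8%). Without both resistant libraries numbered 8 of batch 3, the resistant line had 2 higher members and 2 lower ones. Without the 3 susceptible libraries numbered 7, the susceptible line had 8 higher members and 1 lower one. Calls over all genes tested also fell, from 2784 to 920 in the resistant line and from 2230 to 1072 in the susceptible line. AmaPaChr12Ag190820-mRNA-1, on chromosome 12, was lower in batch 2 in both lines, by -1.87 ± 0.22 (SE) and -1.71 ± 0.22. It read 149, 101 and 151 CPM in untreated resistant plants of batch 2 and 354, 269 and 494 CPM in those of batch 3, with no overlap. Its susceptible plants read 164, 200 and 174 CPM against 473, 427 and 521 CPM.

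The atrazine plants were also set against untreated plants of the other batches. The rule chose the genes for low values in these atrazine libraries and used all untreated libraries, so the counts describe the choice and nothing is read from them. Against batch 1, edgeR called 108 lower in resistant plants (20% of all genes) and 111 in susceptible plants (18.3%). Against batch 3, it called 89 (20.5%) and 86 (19.9%). The resistant counts were 113 and 93 without both resistant libraries numbered 8 of batch 3, and the susceptible counts were 96 and 72 without the 3 susceptible libraries numbered 7. The median log2 difference was -1.08 and -1.001 against batch 1, and -0.74 and -0.77 against batch 3. In these comparisons batch and treatment cannot be told apart. AmaPaChr15Ag235860-mRNA-1 was lower against both, by -3.21 and -3.11 against batch 1 in the 2 lines and by -3.01 against batch 3 in susceptible plants.

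AmaPaChr11Ag189020-mRNA-1, on chromosome 11, was the lowest against batch 1 in resistant plants, at -4.17 ± 0.52 (SE). After atrazine it read 0.219, 0.356 and 0.528 CPM in resistant plants, against 13.6, 4.22 and 4.04 CPM in untreated plants of batch 1 and 3.26, 2.76 and 4.57 CPM in those of batch 2. AmaPaChr07Ag129170-mRNA-1, on chromosome 7, was among the more abundant of the genes. It read 55.5, 61.5 and 45.2 CPM in atrazine-treated resistant plants, against 323, 270 and 136 CPM in untreated plants of batch 2 and 727, 869 and 457 CPM in those of batch 3. Both genes were lower in each of these atrazine libraries than in any untreated library listed here.

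By their identifiers, the genes lay on all 17 numbered chromosomes. Chromosome 1 held 23 of them, 15.9% against 10.5% of the expressed genes, and chromosome 7 held 18, 12.4% against 7.25%. Chromosome 2 held 4, 2.76% against 7.38%. No 2 of the genes were direct neighbours in the order of identifiers, and 7 pairs, 14 genes, had at most 10 gene models between them. These shares are descriptions, and no test of position was made.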

How the data were processed

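The authors deposited unscaled read counts, as whole numbers, for each gene model in each of the 48 libraries. Tools named in the submitters' processing notes, without role or version, are STAR, Trimmomatic, FastQC and DESeq2. No genome build, annotation or strand setting is given in the sources used here. Of the counts above 0, 99.1% were even; how reads of a pair were counted is not stated, and fragment counts (counts halved) were an alternative. Reads of near-identical, overlapping or antisense genes could have been split or shared, which leaves such genes uncertain.

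The members of the group, the tests and the named genes were chosen with earlier results of these data known. CPM uses column totals; genes needed 1 CPM in each untreated library, and log2 differences use a pseudocount of 1 CPM. Tests used edgeR 4.0.16 (R 4.3.3), glmQLFit and its quasi-likelihood F statistic, on the counts: TMM factors, the default low-count filter by group (20645 genes), robust dispersions, 1 mean for each of 16 groups, 32 residual degrees of freedom, and Benjamini-Hochberg adjustment over all genes with a threshold of 0.05. The code was tested on simulated data. DESeq2 1.42.0 was an alternative. Other alternatives changed the scaling, filter, pseudocount, limits and libraries. Named per comparison are at most 2 called genes with the lowest and 2 with the highest log2 value, and for atrazine the 2 with the lowest difference. The labels do not say that replicates came from separate plants in every case, so p-values measure the spread between these libraries.

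Deviations of same-numbered treated and untreated libraries from their group means, numbers taken from the titles, correlated at 0.18 or more in every pair for 2,4-D, mesotrione and atrazine in both lines and at 0.11 or more for lactofen in resistant plants. In those comparisons the numbers pair libraries; the fit reported has no block, and a blocked fit was run beside it. For chlorsulfuron and for lactofen in susceptible plants the lowest values were -0.04, 0.08 and -0.20, and the numbers were not taken as pairs. The blocked fit nevertheless blocked by number in these groups too.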

Additional observations from a re-analysis of the deposited data

Results flagged for a closer look

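For 7 of the 145 genes the lines differed in their lactofen response, by a test of that difference (interaction term, edgeR adjusted p under 0.05). For AmaPaChr08Ag141520-mRNA-1 the difference, resistant minus susceptible, was 5.07 ± 0.56 (SE) on the log2 scale, for AmaPaChr16Ag245900-mRNA-1 it was 1.67 ± 0.45, for AmaPaChr01Ag017080-mRNA-1 it was -2.21 ± 0.60 and for AmaPaChr02Ag038130-mRNA-1 it was -1.17 ± 0.33. The call for AmaPaChr08Ag141520-mRNA-1 held in 20 alternatives and was lost in 1. Those for AmaPaChr16Ag245900-mRNA-1, AmaPaChr01Ag017080-mRNA-1 and AmaPaChr02Ag038130-mRNA-1 held in 8, 8 and 6 and were lost in 13, 13 and 15. The other 3 of the 7 genes had differences of 1.63 ± 0.42, -0.89 ± 0.22 and -0.69 ± 0.17. The rule limited the average of the lines and not their difference, so genes whose lines moved in opposite directions could enter the group.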

How the results depend on the processing

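The rule gave 145 genes. It gave 85 with TMM-scaled library sizes, of which 81 were among the 145 (55.9% of the 145 and 95.3% of the 85). It gave 71 with an atrazine limit of -1, 133 without the 3 susceptible libraries numbered 7 of batch 2, 116 without both resistant libraries numbered 8 of batch 3 (an alternative chosen after seeing the data) and 129 to 175 when each batch 2 untreated or atrazine library was left out in turn. Under total-count scaling the median atrazine difference of the expressed genes was -0.09, and under TMM it was -0.00052; the 145 genes had -0.997 and -0.913. The calls after atrazine were 110 to 132 in resistant and 94 to 132 in susceptible plants under alternatives other than leaving out single libraries, which gave 83 to 111 and 104 to 121. With the replicate block, which pairs libraries by number, they were 132 in each line. The counts of 0 for mesotrione and for the line difference after atrazine were 0 in each alternative run, and the 3 genes called between untreated lines became 2 to 4. The 7 genes called for the line difference after lactofen became 12 with DESeq2, 1 with total counts in place of TMM, 2 with no low-count filter, 0 in batch 3 alone, 11 with the replicate block, 3 without the susceptible libraries numbered 7 of batch 2, 11 without both resistant libraries numbered 8 of batch 3 and 1 to 30 with single libraries left out; the cause was not tested. Calls of named genes held in 278 and were lost in 79 of the combinations of gene, comparison and alternative, and no direction turned. Leaving out single libraries was not run for chlorsulfuron. With 3 libraries a group and a median SE near 0.29 for a response, small changes were not detectable.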
